A study of Mus musculus with 42 samples.

Results

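Aminoacyl-tRNA synthetases attach each amino acid to its tRNA, and they were followed here at the RNA level in mouse offspring whose fathers had been exposed to di(2-ethylhexyl) phthalate (DEHP), a plasticizer. The genes were chosen by symbol alone from a table of 12988 genes: every symbol made of 1 letter and "ars", with or without a final 2, plus Eprs, Farsa, Farsb, Aimp1, Aimp2 and Eef1e1. The rule found 38 genes, of which 17 encode cytosolic enzymes, 16 encode mitochondrial enzymes, 2 encode both forms (Gars and Kars) and 3 encode scaffold proteins (Aimp1, Aimp2 and Eef1e1). Lars2, the mitochondrial leucine enzyme, was left out by the rule. The cytosolic methionine enzyme stood in the table as Mars1 and so fell outside the rule.

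In the study, C57BL/6J males aged 8 weeks received vehicle, a low dose or a high dose of DEHP for 67 days and were then mated with unexposed females. The doses were 2.5 and 25 mg/kg/day. The offspring were C57BL/6 * DBA/2J, wild type, labelled male and collected at embryonic day 7.5, when the embryo is gastrulating. RNA was sequenced from embryonic and extra-embryonic tissue, and bisulfite sequencing of a reduced representation of the genome (RRBS) was run on sperm and on both offspring tissues. The expression table holds 2 control, 2 low-dose and 2 high-dose libraries, and its column names give the treatment only, so the tissue of these libraries is not known. Nothing in the labels says whether libraries came from separate litters or pools, so p-values measure the spread between these libraries, which may be technical.

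A cell charges tRNAs in the cytosol and again in the mitochondrion. There, nuclear-encoded enzymes, most of them from a second set of genes, charge the tRNAs of the organelle. The enzymes fall into class I and class II by the fold of their catalytic core. In mammals, several cytosolic enzymes sit in a multi-synthetase complex held together by Aimp1, Aimp2 and Eef1e1. The transcription factor ATF4, which is made when uncharged tRNA or other stress leads to phosphorylation of eIF2, activates many genes of cytosolic synthetases in mouse cells. It binds with C/EBP partners at the C/EBP-ATF response element, a site of the form TGATGNAA.

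Promoter windows of RefSeq (build GRCm38.p6, from 250 bases before the annotated gene start to 50 after it) were at hand for 28 of the 38 genes, in 30 windows. The 8-base motif TGATGNAA, searched on both strands, lay in 5 of the 30 windows (16.7%), against 766 of 21263 windows of protein-coding genes (3.60%). Among cytosolic enzymes it lay in the windows of 4 of 10 genes, Aars, Iars, Tars and Yars, and among the genes that encode both forms in the window of Gars. None of the 14 windows of the 13 mitochondrial enzymes held it, nor any of the 4 windows of the scaffold genes. The 5 windows are printed 5′ to 3′ in the direction of the gene because they set these enzymes apart by sequence, with each match to the motif, on either strand, in capitals. Gars lies at chr6:55037751-55038050 on the plus strand, Aars at chr8:111033592-111033891 on the plus strand, Iars at chr13:49681880-49682179 on the plus strand, Tars at chr15:11399609-11399908 on the minus strand and Yars at chr4:129189653-129189952 on the plus strand.
Gars: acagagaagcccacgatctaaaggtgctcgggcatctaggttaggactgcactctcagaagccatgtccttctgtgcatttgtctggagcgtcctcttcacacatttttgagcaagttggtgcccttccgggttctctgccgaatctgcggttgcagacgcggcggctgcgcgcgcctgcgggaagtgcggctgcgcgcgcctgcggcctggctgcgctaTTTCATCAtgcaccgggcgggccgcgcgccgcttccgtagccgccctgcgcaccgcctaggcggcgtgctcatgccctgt
Aars: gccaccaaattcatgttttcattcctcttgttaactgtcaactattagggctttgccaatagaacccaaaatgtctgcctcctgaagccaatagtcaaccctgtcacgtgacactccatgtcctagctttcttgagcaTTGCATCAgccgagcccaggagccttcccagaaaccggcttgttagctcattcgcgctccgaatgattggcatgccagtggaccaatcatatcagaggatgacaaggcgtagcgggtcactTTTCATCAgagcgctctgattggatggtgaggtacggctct
Iars: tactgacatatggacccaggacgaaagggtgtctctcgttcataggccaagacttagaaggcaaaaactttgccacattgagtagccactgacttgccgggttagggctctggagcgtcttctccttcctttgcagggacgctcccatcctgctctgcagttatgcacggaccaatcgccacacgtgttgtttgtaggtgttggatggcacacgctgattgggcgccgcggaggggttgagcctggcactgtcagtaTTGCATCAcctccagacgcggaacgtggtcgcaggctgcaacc
Tars: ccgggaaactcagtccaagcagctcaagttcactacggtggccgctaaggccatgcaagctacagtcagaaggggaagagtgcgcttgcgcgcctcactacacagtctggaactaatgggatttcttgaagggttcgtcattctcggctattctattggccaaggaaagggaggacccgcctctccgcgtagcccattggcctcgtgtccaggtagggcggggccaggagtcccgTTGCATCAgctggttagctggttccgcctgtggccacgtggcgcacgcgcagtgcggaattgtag
Yars: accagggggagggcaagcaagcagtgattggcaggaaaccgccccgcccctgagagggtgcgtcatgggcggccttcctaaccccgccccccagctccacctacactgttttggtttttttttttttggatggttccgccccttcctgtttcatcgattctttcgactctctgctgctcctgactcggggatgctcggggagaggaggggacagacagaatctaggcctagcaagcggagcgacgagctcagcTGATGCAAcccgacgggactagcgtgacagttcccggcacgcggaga

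Aars had 2 matches, which did not overlap, and the other 4 genes had 1 each. Gars encodes the glycine enzyme, Aars the alanine enzyme, Iars the isoleucine enzyme of the multi-synthetase complex, Tars the threonine enzyme and Yars the tyrosine enzyme. A match to these letters is a description of the window and was not tested as a binding site. In 8 of the 28 genes (28.6%), another gene started within 1000 bp on the opposite strand and pointed away, against 8.48% of 17492 protein-coding genes. These were Kars with Terf2ip, Yars with S100pbp, Ears2 with Ubfd1, Fars2 with Lyrm4, Rars2 with Orc3, Sars2 with Mrps12, Aimp1 with Tbck and Aimp2 with Pms2. Mitochondrial enzymes accounted for 4 of these 8 pairs and cytosolic enzymes for 1. The starts of Sars2, the mitochondrial serine enzyme, and Mrps12, a protein of the mitochondrial ribosome, lay 147 bp apart. Sars2 had 30.1 and 29.6 CPM in the control libraries, 30.9 and 29.8 CPM in the low-dose libraries and 30.9 and 28.1 CPM in the high-dose libraries. Mrps12 had 27 and 27.3 CPM in the control libraries, 28.7 and 27.5 CPM in the low-dose libraries and 28.1 and 26.7 CPM in the high-dose libraries. High replicate 2 was the lowest of the 6 libraries for both genes, though for Mrps12 only narrowly. Other pairs did not share this. Kars (234 CPM) and Aimp2 (49.9 CPM) were lowest in that library, while their partners Terf2ip (22.7 CPM) and Pms2 (33.7 CPM) were highest in it. Whether paired genes vary together was not tested.

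Expression was deposited as counts per 1000000 (CPM), which are not divided by transcript length, so levels are compared between libraries and not between genes. All 38 genes were above 1 CPM in every library. Fold changes are differences of log2(CPM + 1) between group means from a limma fit across 12987 genes, and calls were made where the adjusted p (Benjamini-Hochberg, over all genes) was under 0.05. With 2 libraries a group, an exact permutation test of a single value cannot go below p = 0.333 (two-sided). In the library totals, 27.9 to 29.8% of the deposited CPM belonged to reads without a gene, and the deposited columns summed to between 982921 and 1017434 CPM. In relative depth, in units of 1000000 of the smallest CPM step of each column, the libraries held 185 and 189 in control, 189 and 194 in low and 153 and 161 in high.

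The members differed little between libraries. Their coefficient of variation over the 6 libraries had a median of 4.11%, with 4.80% for the cytosolic enzymes and 3.48% for the mitochondrial enzymes, against 5.37% for the 9135 genes within the same range of mean CPM. Ears2, the mitochondrial glutamate enzyme, varied least at 1.39%. Mars2, the mitochondrial methionine enzyme and the gene with the lowest CPM of the 38, varied most at 8.31%.

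**Figure D1:**
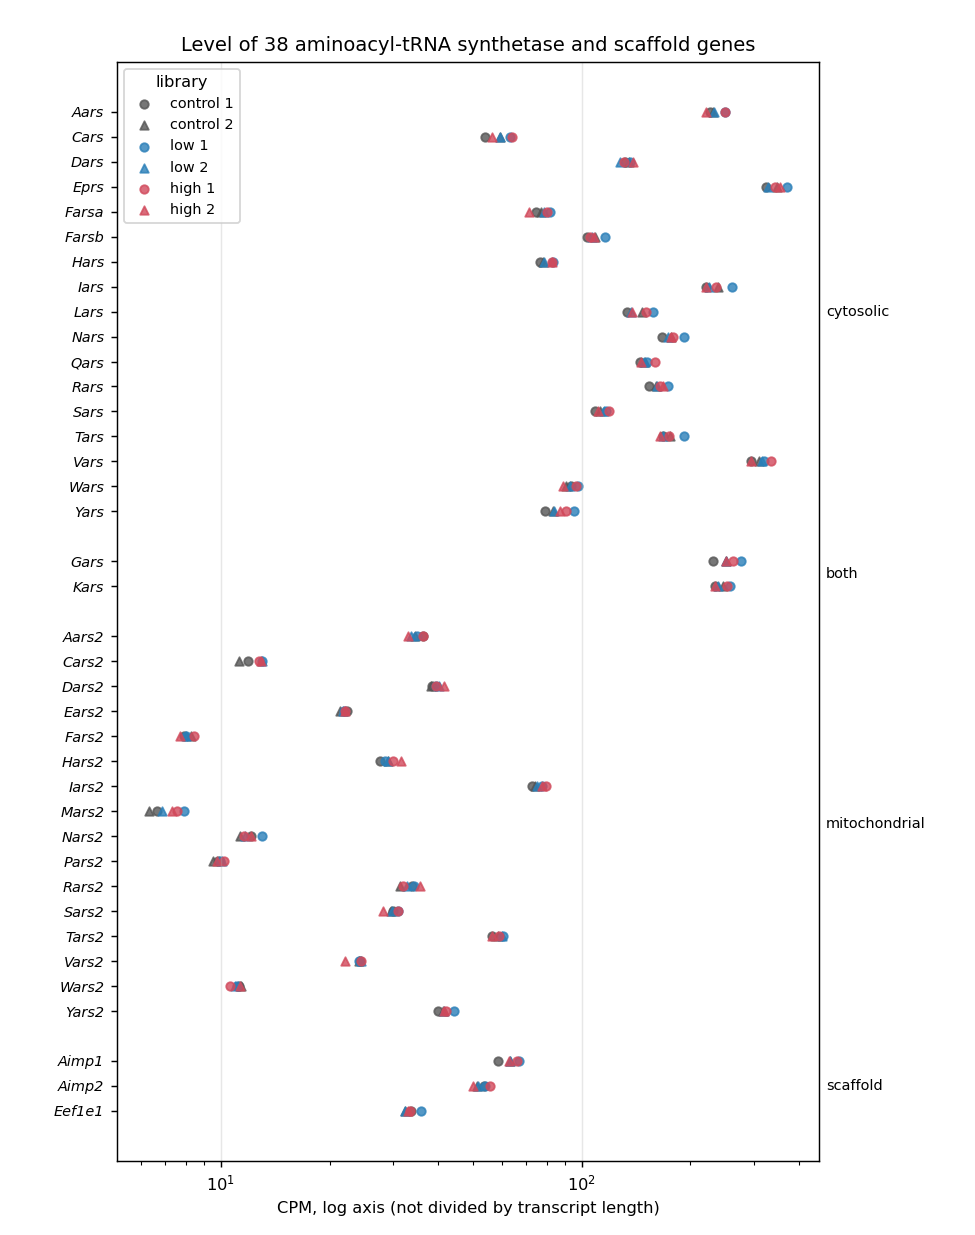
Expression of the 38 genes (rows, grouped by where the enzyme acts) in CPM on a log axis, with 1 point per library and colour for the group. For each gene the 6 points lie close together, with coefficients of variation between 1.39 and 8.31%.

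The cytosolic enzymes had mostly positive fold changes of low-dose over control libraries, and for each gene the 95% interval included 0. Of the 17 genes, 16 had a positive fold change, with a median log2 fold change of 0.072 and a range of -0.018 to 0.13, while the median standard error of a gene was 0.069. None of the 17 was called, nor was any at an unadjusted p under 0.05. In that comparison 0% of all genes were called and 4.87% reached an unadjusted p under 0.05. In 8 of the 17 both low-dose libraries were above both controls and in none were both below, against 18% of all genes above and 17.2% below. Over all genes tested, 51% of fold changes were positive and the median was 0.0025.

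Yars had the smallest p of the cytosolic enzymes in that comparison. It lies on chromosome 4 (129189760 to 129219607, ENSMUSG00000028811, in the coordinates of the expression table) and had 79.4 and 83.6 CPM in the control libraries, 95.2 and 83.6 CPM in the low-dose libraries and 90.3 and 87.1 CPM in the high-dose libraries. Low replicate 1 was the highest of the 6 libraries and control replicate 1 the lowest, and low replicate 2 exceeded control replicate 2 by under 0.1 CPM. The log2 fold change of low over control was 0.13 (SE 0.073), with a 95% interval of -0.042 to 0.30 and an adjusted p of 0.928 by limma. It was 0.038 without low replicate 1 and 0.22 without low replicate 2. Dars, the aspartate enzyme and a member of the multi-synthetase complex, was the only cytosolic enzyme with a negative fold change. It had 137 and 128 CPM in the low-dose libraries, against 132 and 135 CPM in control, so that the groups overlapped, and the log2 fold change was -0.018 (SE 0.059), with an adjusted p of 0.984. Without low replicate 2 its sign turned, to 0.028.

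The level of the cytosolic class differed between replicates of the same dose. When each gene was set against its own mean over the 6 libraries, the median log2 deviation of the 17 genes was -0.068 and -0.0025 in control replicates 1 and 2, 0.089 and -0.018 in low replicates 1 and 2, and 0.051 and -0.044 in high replicates 1 and 2. Low replicate 1 was above the gene's mean for 17 of 17 genes and control replicate 1 for 0 of 17. Low replicate 1 was the highest library for 11 of the 17, against 18.1% of all genes, and control replicate 1 was the lowest for 10, against 16.5%. High replicate 1 was the highest for 5 of the 17, and high replicate 2 was the lowest for 6, against 20.5% and 16.7% of all genes. The gap between the low-dose replicates was larger than the median fold change of the class. Summed over the class, the level was 2562 and 2686 CPM in control, 2864 and 2639 CPM in low and 2766 and 2631 CPM in high libraries. Without low replicate 1 the median log2 fold change of low over control was 0.020, and without low replicate 2 it was 0.13.

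Among the genes with the motif shown above, low replicate 1 was the highest library for Iars, Tars, Gars and Yars but not for Aars. Aars had 227 and 231 CPM in the control libraries, 250.3 and 232 CPM in the low-dose libraries and 251 and 221 CPM in the high-dose libraries, and high replicate 1 was marginally above low replicate 1. Iars had 222 and 239 CPM in the control libraries, 262 and 226 CPM in the low-dose libraries and 235 and 221 CPM in the high-dose libraries. Tars had 169 and 176 CPM in the control libraries, 193 and 168 CPM in the low-dose libraries and 175 and 165 CPM in the high-dose libraries. For Iars and Tars, as for Aars, high replicate 2 was the lowest library, whereas control replicate 1 was the lowest for most of the class.

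The 5 genes with the motif had a median deviation of 0.14 in low replicate 1 and -0.046 in low replicate 2, against 0.079 and -0.014 for the 7 other cytosolic or shared enzymes with a promoter window. In low over control their median log2 fold change was 0.075, with 5 of 5 positive, against 0.058 for the other 7, with 6 of 7 positive. In high over control it was 0.041, with 3 of 5 positive, against 0.016, with 6 of 7 positive. Differences between these sets are smaller than the median standard error of a gene and were not tested.

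In high-dose against control libraries the cytosolic enzymes gave 14 of 17 positive fold changes, with a median of 0.046 and a range of -0.022 to 0.12. None was called, against 0.0077% of all genes, which is 1 gene, and none was at an unadjusted p under 0.05, against 5.29%. Groups did not overlap in 3 of 17, all higher in high-dose libraries, against 23.5% of all genes higher and 12.1% lower. Of all genes, 58.6% had a positive fold change in that comparison and the median was 0.020. Without high replicate 1 the median of the cytosolic enzymes was -0.0051.

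Hars, the cytosolic histidine enzyme, was 1 of the 3 with groups apart. It had 76.6 and 78.2 CPM in the control libraries, 83.2 and 78.7 CPM in the low-dose libraries and 82.9 and 82.6 CPM in the high-dose libraries, and the log2 fold change of high over control was 0.095 (SE 0.055) with an adjusted p of 0.866 by limma. Its low replicate 1 was as high as the high-dose libraries. Against low-dose libraries the cytosolic enzymes were lower on balance, with 3 of 17 positive and a median of -0.021, where 57.5% of all genes were positive, and without low replicate 1 the median was 0.020. None was called (0% of all genes) and none reached an unadjusted p under 0.05 (7.91%). No cytosolic enzyme had groups that did not overlap in high against low, while 21.8% of all genes did in the higher and 11.8% in the lower direction. Farsa and Farsb encode the 2 subunits of the cytosolic phenylalanine enzyme. Farsa had 80.2 and 71.5 CPM in the high-dose libraries, against 81.7 and 78.7 CPM in low, with a log2 fold change of -0.082 (SE 0.069) and an adjusted p of 0.987. Farsb had 106 and 108 CPM in the high-dose libraries, against 116 and 107 CPM in low, with a fold change of -0.062 (SE 0.062) on the same scale. Tars gave -0.086 (SE 0.076) for high over low, and 0.011 without low replicate 1.

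The multi-synthetase complex was represented by 7 enzymes, Dars, Eprs, Iars, Lars, Qars, Rars and Kars, and by the 3 scaffold genes. In low over control the 7 enzymes had a median log2 fold change of 0.058, with 6 positive, and the 11 cytosolic enzymes outside the complex one of 0.074, with 11 positive. Groups were apart, with the low dose higher, in 1 of the 7 and in 7 of the 11, against 18% of all genes. The difference between these sets was not tested, and Mars1, which falls outside the rule, was counted in neither. In high over control the medians were 0.046 for the 7 enzymes, with 6 positive, and 0.044 for the 11 others, with 9 positive. Eprs, which joins the glutamate and proline enzymes in a single protein, had 324 and 348 CPM in the control libraries, 372 and 329 CPM in the low-dose libraries and 343 and 355 CPM in the high-dose libraries. Its log2 fold change of low over control was 0.058 (SE 0.074) and of high over control 0.055 (SE 0.074), each smaller than its standard error.

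None of the 3 scaffold genes was called in any of the 3 comparisons, and their groups overlapped in each. Aimp1, which anchors the arginine and glutamine enzymes and is also released as a cytokine, had 58.6 and 63.3 CPM in the control libraries, 67.1 and 63.2 CPM in the low-dose libraries and 66.4 and 63.1 CPM in the high-dose libraries. Control replicate 1 was the lowest of these libraries, and the log2 fold change of low over control was 0.095 (SE 0.066). Aimp2, the central scaffold of the complex, had 53.5 and 51.2 CPM in the control libraries, 54.2 and 51.6 CPM in the low-dose libraries and 55.9 and 49.9 CPM in the high-dose libraries, with 0.014 (SE 0.072) for low over control. Eef1e1, the smallest of the scaffold proteins, had 33.6 and 32.3 CPM in the control libraries, 35.8 and 32.4 CPM in the low-dose libraries and 33.5 and 33 CPM in the high-dose libraries, with 0.045 (SE 0.071) for low over control.

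Gars and Kars each make a cytosolic and a mitochondrial enzyme from 1 gene, and the CPM do not separate the forms. Gars (chromosome 6, 55038007 to 55079500, ENSMUSG00000029777) had 232 and 251 CPM in the control libraries, 276 and 252 CPM in the low-dose libraries and 263 and 252 CPM in the high-dose libraries. Low replicate 1 was the highest library and control replicate 1 the lowest, and the remaining 4 lay between them. The log2 fold change of low over control was 0.13 (SE 0.069) with an interval of -0.034 to 0.29 and an adjusted p of 0.928 by limma, and of high over control 0.091 (SE 0.069) with an adjusted p of 0.87. Without low replicate 1, Gars gave 0.060 for low over control. Kars had 235 and 246 CPM in the control libraries, 259 and 239 CPM in the low-dose libraries and 253 and 234 CPM in the high-dose libraries, with overlapping groups and log2 fold changes of 0.047 (SE 0.067) for low and 0.016 (SE 0.067) for high over control.

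The mitochondrial enzymes had mostly positive fold changes in low over control, and in high over control a share and a median near those of all genes. For each gene the 95% interval included 0 in both comparisons. In low over control 13 of 16 fold changes were positive, with a median of 0.044 and a range of -0.051 to 0.16, and none of the 16 was called or had an unadjusted p under 0.05. Groups did not overlap in 7 of 16 with low-dose libraries higher and in 1 with them lower, read against the same 18% and 17.2% of all genes. In high over control 11 of 16 were positive, with a median of 0.027 and a range of -0.055 to 0.17, while 58.6% of all genes were positive with a median of 0.020. Groups did not overlap in 6 of 16, each higher in high-dose libraries, against 23.5% of all genes higher and 12.1% lower. Under quantile normalization the median of high over control was -0.00063. Without low replicate 1 the median of low over control was 0.021, and without control replicate 1 that of high over control was 0.049. In high over low the class split evenly, with 8 of 16 positive and a median of 0.0019, while 57.5% of all genes were positive. Groups were apart in 2 genes each way, against 21.8% of all genes higher and 11.8% lower.

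Cars2, the mitochondrial cysteine enzyme, had the smallest p of the 38 genes against control at both doses. It lies on chromosome 8 (11513977 to 11550783, ENSMUSG00000056228) and had 11.9 and 11.2 CPM in the control libraries, 13 and 13 CPM in the low-dose libraries and 12.7 and 12.9 CPM in the high-dose libraries. All 4 libraries of exposed groups were above both controls. The log2 fold change of low over control was 0.16 (SE 0.078), with an interval of -0.025 to 0.34, an unadjusted p of 0.0812 and an adjusted p of 0.928 by limma. That of high over control was 0.14 (SE 0.078), with an interval of -0.044 to 0.32 and an adjusted p of 0.866. The cytosolic cysteine enzyme, Cars, had 53.8 and 59.3 CPM in the control libraries, 63.4 and 59.4 CPM in the low-dose libraries and 64.1 and 56.3 CPM in the high-dose libraries, with control replicate 1 lowest and the high-dose group overlapping the controls. Both comparisons share the 2 control libraries.

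Mars2 (chromosome 1, 55237177 to 55248470, ENSMUSG00000046994) had the largest fold change of high over control among the 38 genes. It had 6.66 and 6.31 CPM in the control libraries, 7.87 and 6.85 CPM in the low-dose libraries and 7.56 and 7.33 CPM in the high-dose libraries, so that all 4 libraries of exposed groups were again above both controls. The log2 fold change of high over control was 0.17 (SE 0.099), with an interval of -0.056 to 0.40 and an adjusted p of 0.866 by limma. Its cytosolic counterpart, Mars1, which falls outside the rule, had 124 and 132 CPM in the control libraries, 137 and 127 CPM in the low-dose libraries and 139 and 117 CPM in the high-dose libraries, with overlapping groups. With Mars1 counted in, the cytosolic class had a median of 0.070 for low and 0.045 for high over control.

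Hars2, the mitochondrial histidine enzyme, differed most between the doses. It lies next to Hars in the genome and had 27.5 and 29.1 CPM in the control libraries, 28.4 and 29.1 CPM in the low-dose libraries and 30 and 31.6 CPM in the high-dose libraries. High replicate 2 was the highest library and both high-dose libraries were above the other 4. For high over control the log2 fold change was 0.12 (SE 0.067) with an adjusted p of 0.866 by limma, and for high over low 0.092 (SE 0.067) with an adjusted p of 0.944. Iars2, the mitochondrial isoleucine enzyme, gave 0.039 (SE 0.054) for high over low, with 79.8 and 77.5 CPM in the high-dose libraries, against 77.7 and 75.4 CPM in low.

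A few mitochondrial enzymes pointed the other way. Aars2, the alanine enzyme, had 36.4 and 34.5 CPM in the control libraries, 34.9 and 33.5 CPM in the low-dose libraries and 36.4 and 33 CPM in the high-dose libraries, with overlapping groups and log2 fold changes of -0.051 (SE 0.073) for low and -0.033 (SE 0.073) for high over control. The sign of the fold change of high over control turned without control replicate 1 (0.0048) and without high replicate 2 (0.037). Wars2, the tryptophan enzyme, had 11.2 and 11.3 CPM in the control libraries, 11.1 and 10.9 CPM in the low-dose libraries and 10.6 and 11.3 CPM in the high-dose libraries. It was the only gene of the 38 whose low-dose libraries were both below both controls, by a log2 fold change of -0.031 (SE 0.08). Vars2, the valine enzyme, had 24.3 and 24.2 CPM in the control libraries, 24.1 and 24.4 CPM in the low-dose libraries and 24.5 and 22.1 CPM in the high-dose libraries, where high replicate 2 stood below the other 5, and gave -0.055 (SE 0.073) for high over control and 0.014 without that library. Tars2, the threonine enzyme, had 59.1 and 56.3 CPM in the high-dose libraries, against 60.6 and 60 CPM in low, with -0.063 (SE 0.058) for high over low. Wars2 in high over control gave -0.039 (SE 0.08), and 0.0023 without high replicate 1.

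Lars2, which the rule leaves out, had 402 and 348 CPM in the control libraries, 511 and 449 CPM in the low-dose libraries and 712 and 611 CPM in the high-dose libraries. Its log2 fold change of high over control was 0.82 (SE 0.11), with an unadjusted p of 8.6e-05 and an adjusted p of 0.506 by limma. Whether these reads came from Lars2 transcripts alone was not examined, so the values are not read as a change of the enzyme. The largest fold change among the 16 mitochondrial enzymes under the rule was 0.17.

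**Figure D2:**
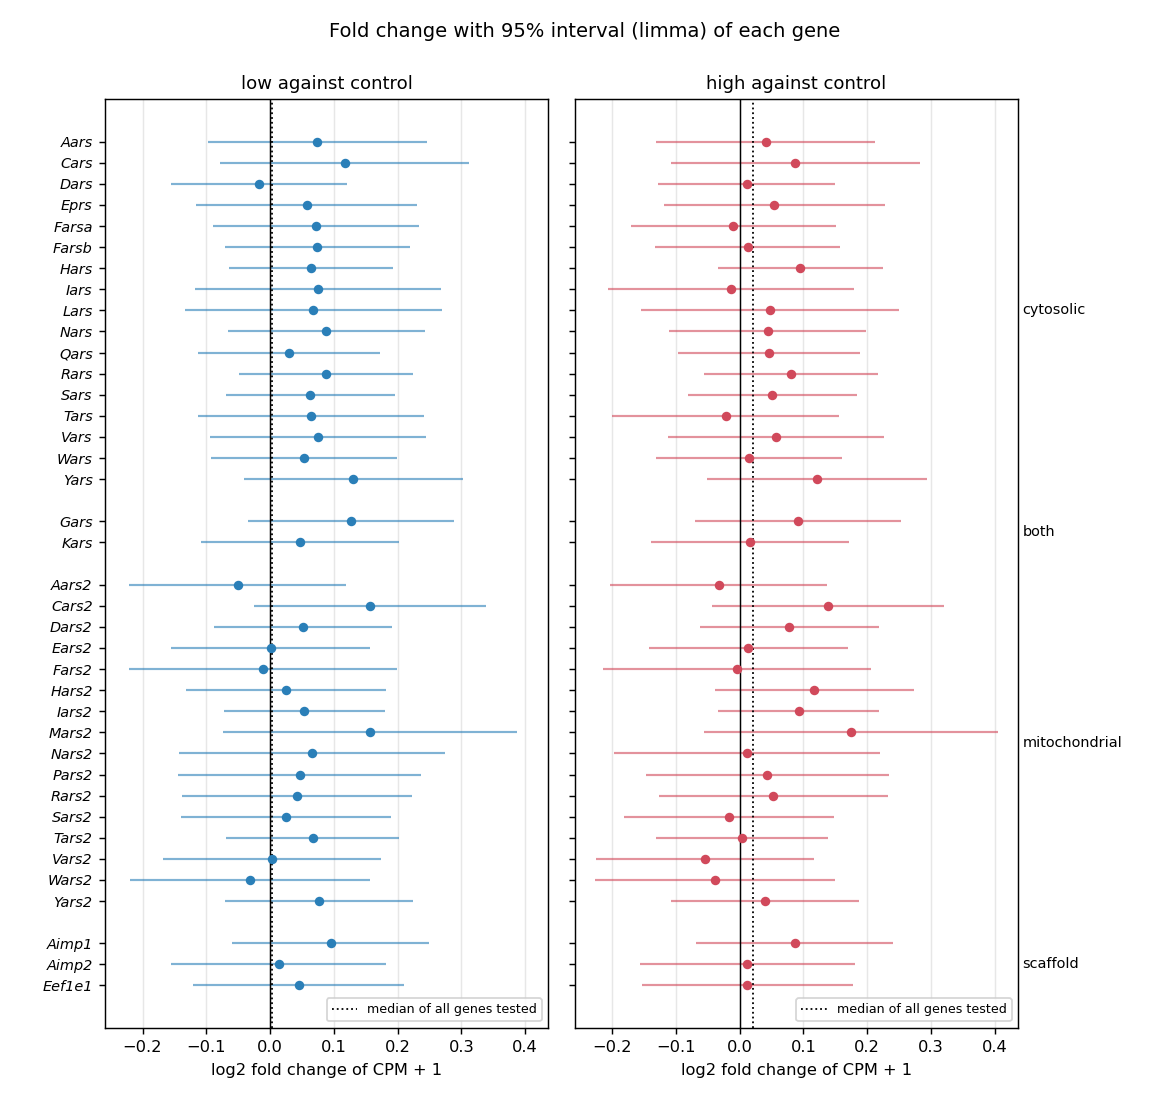
Log2 fold change of CPM + 1 (x axis) with its 95% interval from limma for each of the 38 genes, for low against control on the left and high against control on the right. Points are the fold changes, solid lines mark 0 and dotted lines the median of all genes tested, and the interval of each of the 38 genes includes 0 in both comparisons.

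Set side by side, the cytosolic and mitochondrial classes had medians of 0.072 and 0.044 in low over control, and of 0.046 and 0.027 in high over control. The difference between classes is smaller than the median standard error of a gene, which was 0.069 for cytosolic and 0.073 for mitochondrial enzymes, and it was not tested. By library, the classes had these values. The median deviations of the 16 mitochondrial enzymes were -0.017 and -0.024 in control, 0.020 and -0.0081 in low and 0.030 and 0.014 in high replicates 1 and 2, so that the 4 libraries of exposed groups were above both controls. Within groups, the library medians had a pooled SD of 0.064 for the cytosolic class and 0.013 for the mitochondrial class. Over all genes the library medians were -0.0057 and -0.0041 in control, -0.0029 and -0.0034 in low and 0.018 and 0.018 in high replicates 1 and 2. The exposed groups were thus above both controls over all genes too, and the order by itself is not particular to the mitochondrial class. Its size differed in low over control, where the median log2 fold change was 0.0025 over all genes and 0.044 for the class. In high over control these medians were 0.020 and 0.027. The difference from all genes was not tested. Summed over the class, the mitochondrial level was 442 and 441 CPM in control, 459.6 and 449 CPM in low and 457.5 and 450.5 CPM in high libraries.

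**Figure D3:**
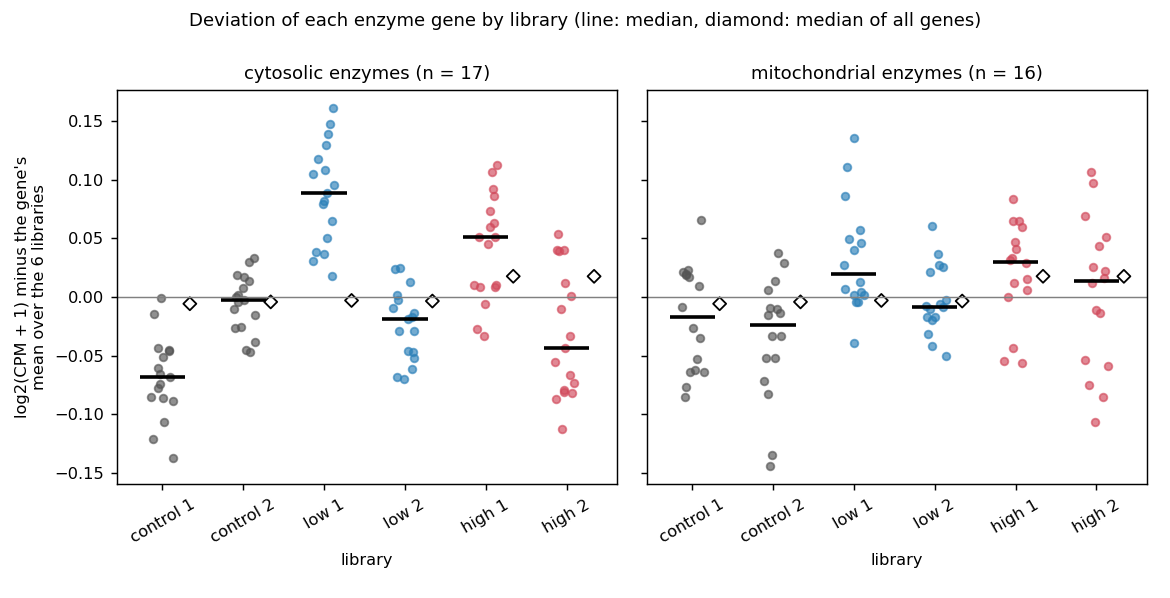
Deviation of log2(CPM + 1) from the gene's own mean over the 6 libraries (y axis) by library, with 1 point per gene, a line at the class median and a diamond at the median of all genes. The cytosolic enzymes (left, n = 17) peak in low replicate 1 at a median of 0.089 and are lowest in control replicate 1 at -0.068, and the mitochondrial enzymes (right, n = 16) stay between -0.024 and 0.030.

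For 14 pairs of a cytosolic and a mitochondrial enzyme of the same amino acid (with Fars2 set against both Farsa and Farsb), the ratio within a library removes differences that both enzymes share. The log2 ratio of cytosolic over mitochondrial enzyme was higher in low than in control libraries in 11 of 14 pairs, by a median of 0.043, and groups did not overlap in 5 pairs, all higher. In high against control it was higher in 8 of 14, by a median of 0.023, with groups apart in 4 pairs higher and 3 lower. In high against low it was higher in 5 of 14, by a median of -0.021, with groups apart in 0 pairs higher and 3 lower. No share over other pairs of genes was computed, so these counts have no background. Of single genes, 18% were apart higher and 17.2% lower in low against control. The shares were 23.5% and 12.1% in high against control and 21.8% and 11.8% in high against low. By library, the median deviation of the ratio was -0.048 and -0.0078 in control, 0.058 and -0.0046 in low and 0.020 and -0.027 in high replicates 1 and 2. Low replicate 1 was above the pair's mean in 13 of 14 pairs.

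Markers of embryonic and extra-embryonic cell types also moved between these libraries. All 11 of 11 markers of epiblast and primitive streak were in the table, and their summed level was 1193 and 1344 CPM in control, 1511 and 1280.1 CPM in low and 1102 and 945 CPM in high libraries. The sum was highest in low replicate 1, but the markers differed. Pou5f1, Mesp1, Eomes, Otx2, Lefty2 and Fgf5 were highest in that library. T was highest in low replicate 2, Nanog, Mixl1 and Fgf8 in control replicate 2 and Sox2 in control replicate 1. All 9 of 9 markers of visceral endoderm were present, at 2296 and 1083 CPM in control, 1752 and 2063 CPM in low and 1826 and 2467 CPM in high libraries. Apob and Cubn, the highest of them in every library, weigh most in these sums. Each of the 9 had a positive fold change at both doses, and none was called. Groups were apart, higher than control, in 4 of 9 at each dose, against 18% of all genes in low and 23.5% in high. Control replicate 2 was the lowest library for each of the 9. Of the extra-embryonic ectoderm markers 7 of 9 were in the table, at 98 and 69.8 CPM in control, 112 and 98.3 CPM in low and 106 and 136 CPM in high libraries, while Elf5 and Tpbpa were not listed. These sums hide opposite moves in low replicate 1. Plac1 (24.4 CPM), Tfap2c (19.4 CPM) and Ascl2 (5.05 CPM) were highest in that library and Cdx2 (13.3 CPM) was lowest there. Esrrb, Hand1 and Gata3 were neither highest nor lowest in it. Extra-embryonic mesoderm markers (4 of 6) summed to 34.4 and 31.5 CPM in control, 22.6 and 41.3 CPM in low and 40.9 and 68.1 CPM in high libraries, so that low replicate 1 was the lowest and high replicate 2 the highest. The decidua markers (3 of 8) summed to between 21.1 and 26.7 CPM. Their part in the fold changes of the synthetases was not tested, and in bulk RNA fewer cells of a type and less RNA per cell cannot be told apart. Xist, which marks female cells, was at 442 to 742 CPM and the Y-linked Ddx3y at 6.74 to 17.8 CPM across the libraries, although the labels give male.

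Other genes of tRNA charging, outside the rule, gave 8 of 14 positive fold changes in low and 9 of 14 in high over control. Over all genes 51% and 58.6% were positive. None was called, against 0% and 0.0077% of all genes. In high over control, groups were apart in 6 of the 14 with the high dose higher and in 1 with it lower, against 23.5% and 12.1% of all genes. Mtfmt, which formylates the initiator methionyl-tRNA of mitochondria, had 10.9 and 11.3 CPM in the high-dose libraries, against 9.78 and 9.71 CPM in control, with a log2 fold change of 0.17 (SE 0.082) and an adjusted p of 0.866 by limma. Aarsd1, an alanyl-tRNA editing protein, had 4.01 and 3.46 CPM in the high-dose libraries, against 3.04 and 3.18 CPM in control. Sephs1, a paralog of selenophosphate synthetase, had 128 and 124 CPM in the high-dose libraries, against 136 and 133 CPM in control, and Pstk, the kinase on the route to selenocysteinyl-tRNA, had 18.7 and 18.4 CPM in the high-dose libraries, against 16.5 and 17.5 CPM in control.

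The integrated stress response, the ATF4 pathway, was measured with 31 of 38 listed genes. In low over control 21 of 31 were positive, with a median of 0.053, and in high over control 16 of 31, with a median of 0.00055. Over all genes 51% and 58.6% were positive, with medians of 0.0025 and 0.020. None was called, and at an unadjusted p under 0.05 there were 2 genes in low and 5 in high over control, of which 4 were higher and 1 lower, against 4.87% and 5.29% of all genes in these comparisons. In high over control, groups were apart in 8 of the 31 with the high dose higher and in 2 with it lower, against 23.5% and 12.1% of all genes. Atf4 itself had 148 and 148 CPM in the control libraries, 160.5 and 142 CPM in the low-dose libraries and 154 and 146 CPM in the high-dose libraries. Low replicate 1 was its highest library, as it was for 18.1% of all genes, and a link to the synthetases was not tested. Cebpb, a C/EBP factor, had 2.45 and 2.24 CPM in the high-dose libraries, against 1.19 and 1.46 CPM in control, with a log2 fold change of 0.53 (SE 0.12), an unadjusted p of 0.00256 and an adjusted p of 0.866 by limma. Psat1, an enzyme of serine synthesis, had 144 and 149 CPM in the high-dose libraries, against 135 and 129 CPM in control. Slc3a2, the heavy chain of several amino acid transporters, had 119.5 and 117 CPM in the high-dose libraries, against 111 and 93.9 CPM in control, and Slc38a2, a transporter of neutral amino acids, had 202 and 200.3 CPM in the high-dose libraries, against 216 and 230.1 CPM in control. These 4 genes had the smallest p of the list, and the adjusted p of each was 0.866.

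Of the eIF2 kinases and their sensors 9 of 10 were measured, with 3 positive fold changes in low and 5 in high over control. Over all genes 51% and 58.6% were positive. None was called, against 0% and 0.0077% of all genes. In high over control, groups were apart in 2 with the high dose higher and in 1 with it lower, against 23.5% and 12.1% of all genes. Eif2ak3, the kinase of the endoplasmic reticulum, had 19.2 and 21.6 CPM in the high-dose libraries, against 17.2 and 18.9 CPM in control, and Eif2ak4, the kinase that senses uncharged tRNA, had 31.3 and 30.4 CPM in the high-dose libraries, against 32.5 and 31.3 CPM in control. Eif2b5, a subunit of the exchange factor of eIF2, gave a log2 fold change of 0.079 (SE 0.059) and Impact, an inhibitor of Eif2ak4 activation, 0.06 (SE 0.078) for high over control.

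Cytosolic elongation factors (10 of 10 measured) gave 7 positive fold changes in low and 5 in high over control, against 51% and 58.6% of all genes. None was called, against 0% and 0.0077% of all genes. In high over control, groups were apart in 2 with the high dose higher and in 0 with it lower, against 23.5% and 12.1% of all genes. Eef1d, a subunit of the exchange factor that recharges the elongation factor carrying aminoacyl-tRNA, had 291 and 275 CPM in the high-dose libraries, against 255 and 269 CPM in control. Its partners Eef1b2 and Eef1g and the kinase Eef2k gave log2 fold changes of 0.081 (SE 0.064), 0.059 (SE 0.069) and 0.081 (SE 0.079) for high over control.

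Mitochondrial translation factors gave mostly positive fold changes. Of 11 measured of 13, 10 had a positive fold change in low over control, with a median of 0.044, and 11 of 11 in high over control, with a median of 0.10. Over all genes 51% were positive in low and 58.6% in high over control. In 8 of the 11 the high-dose libraries were both above both controls, against 23.5% of all genes. None was called. Mterf4, a factor of mitochondrial ribosome assembly, had 17.9 and 17.5 CPM in the high-dose libraries, against 15.4 and 16 CPM in control, with a log2 fold change of 0.17 (SE 0.072), an unadjusted p of 0.0502 and an adjusted p of 0.866 by limma. Mtrf1l, a release factor, had 7.26 and 8.04 CPM in the high-dose libraries, against 5.25 and 7.2 CPM in control, with 1 control library low. Tsfm, the elongation factor Ts of mitochondria, had 26.1 and 27.2 CPM in the high-dose libraries, against 24.2 and 24.9 CPM in control, and Mrrf, the ribosome recycling factor, had 20.6 and 21.1 CPM in the high-dose libraries, against 20.3 and 18 CPM in control.

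DNA methylation around the starts of these genes was read from the RRBS table, which gives percent methylation in tiles of 100 bp for 3 control, 3 low-dose and 3 high-dose libraries. The column names give no tissue, so whether these are sperm or offspring libraries is not known. Within 1000 bp of the start lay 131 tiles at 27 of the 28 genes with an annotated strand, Tars2 having none. The tiles were low in methylation, with a median of 1.02% over the 9 libraries, against 20.5% over all 141251 tiles, and 67.9% of them were under 5%. Cytosolic enzymes had 39 tiles at 10 genes with a median of 0.574%, and mitochondrial enzymes had 62 tiles at 12 genes with a median of 3.17%. Tiles of 1 gene lie side by side and are not independent, and the difference between the classes was not tested.

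**Figure D4:**
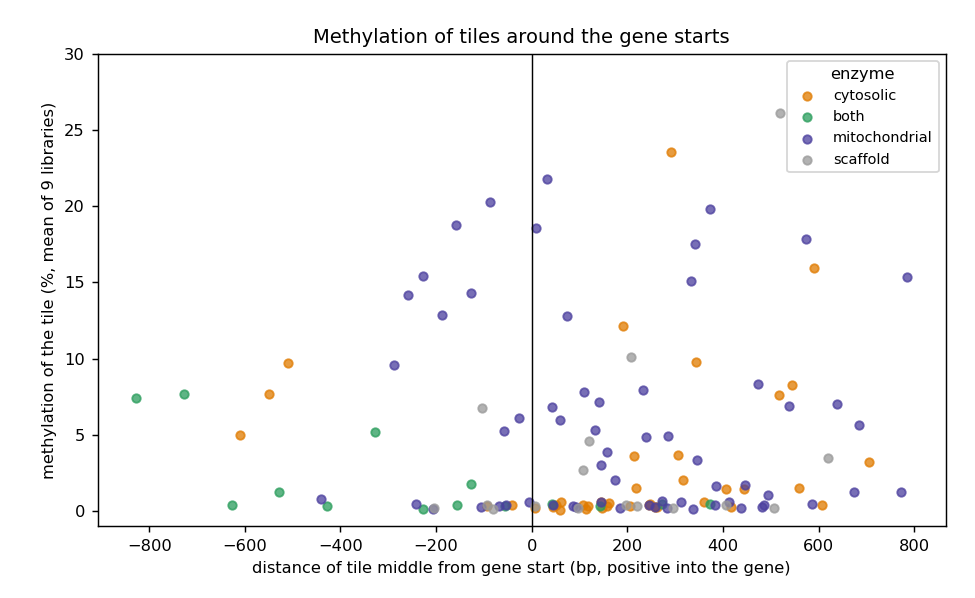
Mean percent methylation over 9 libraries (y axis) of each 100 bp tile against the distance of its middle from the gene start (x axis, in bp, positive into the gene), coloured by where the enzyme acts. Most tiles lie under 5%, and 4 lie above 20%.

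The 4 tiles above 20% belonged to Aimp1 (26.1%), Yars (23.6%), Cars2 (21.8%) and Ears2 (20.3%). At Yars the tile lay 290.5 bp into the gene, by the start in the expression table, and outside the promoter window shown above. No tile at these genes was called in any of the 3 comparisons, against 0% of all tiles in each. At an unadjusted p under 0.05 there were 3 of 131 tiles in low against control, 1 in high against control and 2 in high against low, against 5.49%, 4.44% and 4.71% of all tiles. A tile before the start of Mars2 (chromosome 1, 55237001 to 55237100) had the largest difference of low against control. It had 22.1, 18.1 and 14.8% methylation in low-dose libraries, against 6.52, 12.5 and 13.7% in control, a difference of 7.41 percentage points (SE 2.39) with an adjusted p of 0.849 by limma. The low-dose libraries were all above the controls there, and high-dose libraries had 13.5, 14.8 and 12.7%. Of the 11 tiles at Mars2, 8 were lower in low-dose than in control libraries and 3 higher, and the tiles on either side differed by -3.50 and -2.37 percentage points. Averaged over the 131 tiles, methylation was between 3.97 and 4.56% in the 9 libraries, with the lowest and the highest value both in low-dose libraries.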

How the data were processed

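The expression table holds CPM per gene for 6 libraries, computed by the authors per the file headers. The RRBS table, also from the authors, holds deposited percent methylation of tiles without coverage. The tools TopHat, Bowtie 0.12.2, SAMtools, edgeR, Bowtie2, Bismark, methylKit and Trim Galore and the builds mm8 and mm10 are listed, without roles, per the submitters' processing notes. Which tissue a column holds is not given in the sources used here, so groups were taken from column names by treatment. The labels list 12 RNA samples and 30 RRBS samples, and the tables hold 6 and 9 columns. The CPM are whole multiples of a step per column, but the table leaves out low genes and the steps were not accepted as whole reads, so relative depth is given and counting intervals are not. Tile coverage is unknown.

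A filter of 1 CPM in any 2 libraries left 12987 of 12988 genes, and lines without a gene were dropped. The 3 groups were fitted together on log2(CPM + 1) by limma (version 3.58.1, R version 4.3.3) with its trend option (3 residual degrees of freedom). The pseudocount of 1 understates changes of low genes. Tiles were fitted with limma on percent, and both steps were tested on simulated data. P-values were adjusted over all genes or all tiles.

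Symbols of all 38 genes were found in the RefSeq gene table (GRCm38.p6), 35 lay within 100 bp of its gene ends, and 28 had a promoter window. Tiles near RefSeq starts numbered 42022 within 500 bp with a mean of 8.54%, against 2300 to 2989 with means of 33.7 to 37.2% after shifting the starts, so the tiles were taken to be in GRCm38 coordinates. Tile distances were measured from the gene starts of the expression table, which for some genes differ from the RefSeq starts of the promoter windows. Genes were grouped by compartment and complex from textbook knowledge. Named in full were the 3 genes with the smallest p in each direction of each comparison, the scaffold and shared genes, and, of each other list, the 4 genes with the smallest p in high against control. A planned choice by level per length was not made, because transcript lengths are not given in the sources used here. Aars, Cars, Eprs, Farsb, Iars, Sars2, Mrps12, Terf2ip, Pms2, Mars1, Lars2, Atf4 and, in high against control, Hars were named for a role, a pair or a motif after their values were seen. The members and lists were chosen with earlier results of these data known.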

Additional observations from a re-analysis of the deposited data

How the results depend on the processing

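The counts of called genes stayed at 0 for the 38 genes in each comparison, and at 0 for the tiles, under every alternative run: pseudocounts of 0.1 and 5, no filter or a mean of at least 5 CPM, no variance trend, quantile normalization, columns rescaled to 1000000, fits of only the groups compared, a replicate block and leaving out each library, and for tiles other windows, a trend and a logit scale. The count tests planned with edgeR and DESeq2 were not run. Under quantile normalization the median log2 fold change of the mitochondrial enzymes was -0.00063 in high over control and -0.038 in high over low. Without 1 library each, the median of the cytosolic enzymes lay between 0.020 and 0.13 in low over control, -0.0051 and 0.074 in high over control, and -0.086 and 0.020 in high over low. For the mitochondrial enzymes it lay between 0.021 and 0.044, 0.022 and 0.049, and -0.017 and 0.012. Signs turned in high over control for Aars2 without control replicate 1 (0.0048) or high replicate 2 (0.037), within a range of -0.10 to 0.037, for Wars2 without high replicate 1 (-0.079 to 0.0023) and for Vars2 without high replicate 2 (-0.12 to 0.014). They turned for Dars in low over control without low replicate 2 (-0.063 to 0.028), and in high over low for Tars without low replicate 1 (-0.18 to 0.011) and Hars without low replicate 2 (-0.0083 to 0.071). The cause was not tested. Among the members with the smallest p in each direction, which are the single genes refitted under the alternatives, the lowest adjusted p was 0.407, for Tars in high over low. Column numbers did not pair the libraries: deviations of same-numbered libraries correlated at 0.0035 between control and low, -0.073 between control and high and 0.090 between low and high, across genes, and with the replicate block 0 of the 38 genes were called and the cytosolic median in low over control was 0.072. With 2 libraries a group and a median standard error of 0.071, differences the size of the medians were not detectable for single genes.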
